A study of Mus musculus with 12 samples.

Results

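The genes described here are those of the cytosolic ribosome, measured by RNA sequencing in 3 CD4+ T cell populations sorted from mouse thymus. They were taken by symbol, as names that start with Rpl or Rps followed by a digit or p, without the Rps6k kinases and without names that carry the pseudogene ending -ps. Of 55450 genes in the table, 92 met that rule. They comprised 76 canonical ribosomal proteins, 30 of the small and 46 of the large subunit, 7 paralogs that differ in sequence from a canonical protein, 8 further copies and Rps19bp1, which encodes a protein that binds Rps19. The annotation calls 7 of the members pseudogenes.

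The mice behind all 12 libraries were CD4-Cre x Foxp3-GFP, and green fluorescent protein in them reports Foxp3, the transcription factor that defines regulatory T cells (Tregs). Cre driven by CD4 regulatory sequence acts in T lineage cells, and the labels name no floxed allele and no age. Eos+ Tregs were sorted as CD4+Foxp3+ cells with both Ccr6 and Cxcr4 at the surface, Eos- Tregs as CD4+Foxp3+ cells with neither, and conventional T cells (Tconv) as CD4+Foxp3- cells, with 4 libraries in each group. The labels write Eos+ and Eos- under genotype, but the sorting scheme separates the Tregs by surface markers, not by an allele of Eos (Ikzf4). Libraries were made from 1 ng of RNA by template switching and tagmentation, a method that does not record the strand.

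Ribosomal proteins assemble on ribosomal RNA into a small subunit, which decodes the messenger RNA, and a large subunit, which joins amino acids. Their genes are transcribed at high rates, and many of their messenger RNAs begin with a run of pyrimidines, the terminal oligopyrimidine tract, through which mTORC1 and Larp1 control their translation. In T cells ribosome production increases when a resting cell grows and divides. Because subunits need their proteins in near equal number, these genes are usually seen to vary together, which makes a member that moves by itself visible.

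Start windows are shown for 3 canonical genes and 3 paralogs that recur below. Rps27 and Rps27l, and Rpl22 and Rpl22l1, are parent and paralog, Rps18 shows a long pyrimidine run and Rpl7l1 a short one. Each holds 15 bases before and 15 after the annotated start, from RefSeq on GRCm38.p6, and capitals mark the longest run of C or T on the transcribed strand that begins inside the window.
Rps18, chr17:33955651-33955680, minus strand: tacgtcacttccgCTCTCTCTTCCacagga
Rps27, chr3:90213634-90213663, minus strand: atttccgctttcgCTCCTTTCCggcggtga
Rps27l, chr9:66946071-66946100, plus strand: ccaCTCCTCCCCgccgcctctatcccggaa
Rpl22, chr4:152325711-152325740, plus strand: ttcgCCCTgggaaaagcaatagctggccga
Rpl22l1, chr3:28805493-28805522, plus strand: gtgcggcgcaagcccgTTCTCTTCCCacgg
Rpl7l1, chr17:46782642-46782671, minus strand: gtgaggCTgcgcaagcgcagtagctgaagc

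The runs were 11 bases in Rps18, 9 in Rps27 and Rps27l, 10 in Rpl22l1, 4 in Rpl22 and 2 in Rpl7l1. The RefSeq table held a window for 67 of the 92 members, and 25 of them (37.31%) had a run of at least 8 C or T on the transcribed strand, against 12.97% of 27025 windows of all genes. The sequence CCGGAA, searched on both strands of the 300 bases around the start, was present in 47.76% of the member windows and in 15.22% of all windows. These shares describe letters near annotated starts, which can lie some bases away from the start used in these cells.

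As a whole the canonical genes were abundant and lay close together. Among the highest mean levels over the 12 libraries per kilobase of transcript was that of Rpl13 in the large subunit, at 1132 CPM (counts per 1e6 of the scaled library total) per kb. Rplp0, the base of the ribosomal stalk, was at 905 CPM per kb. In the small subunit Rps19 was at 835 CPM per kb and Rps18 at 803 CPM per kb. The lowest canonical gene was Rpl22, at 21.1 CPM per kb. The paralogs Rpl10l and Rpl3l, known as testis and muscle forms, had 0 counts in every library, and the copy Rpl32l had 8 counts over the 4 Eos+ Treg libraries, 6 over those of Eos- Tregs and 7 over those of Tconv. These were the 3 members that did not pass the filter on low counts, which left 89.

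Of the scaled library total, the members together took 1.81%, 1.52%, 1.60% and 2.24% in Eos+ Treg libraries 1 to 4. The shares were 1.75%, 1.87%, 1.85% and 2.25% in Eos- Tregs and 1.66%, 1.69%, 1.91% and 2.04% in Tconv. Library 4 held the highest share in each group, and the groups overlapped. The same was seen in a measure that gives each gene equal weight, the family level. It is the median, over the 61 core members with a mean of 100 CPM or more, of the log2 deviation from the gene's mean over the 12 libraries. The core members are 60 canonical genes and Rpl7l1. In log2 and in the order of the replicate numbers, the family level was -0.05, -0.30, -0.24 and 0.28 in Eos+ Tregs. It was -0.07, 0.04, 0.03 and 0.33 in Eos- Tregs, and -0.15, -0.14, 0.05 and 0.14 in Tconv. In bulk RNA a lower level in part of the cells and a lower level in every cell cannot be told apart.

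**Figure D1:**
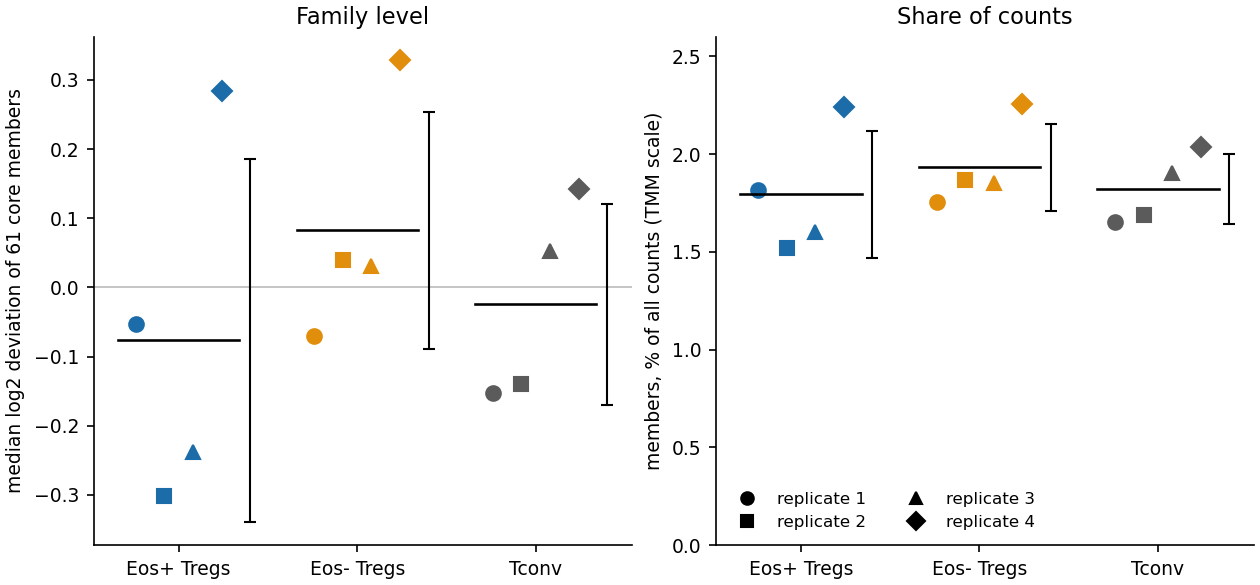
Left, family level per library, as the median log2 deviation of the 61 core members. Right, the members' percentage of the scaled library total. Points are libraries, with the symbol giving the replicate number, horizontal lines are group means and vertical bars 1 SD (n = 4). Replicate 4 is the highest library in each group, at 0.28, 0.33 and 0.14 on the left, and the ranges of the 3 groups overlap.

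Eos+ Tregs had a mean family level of -0.08 ± 0.26, Eos- Tregs one of 0.08 ± 0.17 and Tconv one of -0.02 ± 0.15 (SD, n = 4 each). The difference between Eos+ and Eos- Tregs, -0.16 in log2, was smaller than 0.20, the pooled SD of single libraries within a group. That SD includes the spread between replicate numbers, which a comparison within numbers leaves out. Within replicate numbers Eos+ minus Eos- Tregs gave 0.02, -0.34, -0.27 and -0.04, so that 3 of 4 pairs lay below 0. Eos+ Tregs minus Tconv gave 0.10, -0.16, -0.29 and 0.14, with 2 of 4 pairs below 0. Eos- Tregs minus Tconv gave 0.08, 0.18, -0.02 and 0.19, with 1 of 4 pairs below 0. No shift of the family between populations thus exceeded the spread of single libraries, and the pairs differed in sign in each of the 3 comparisons. A smaller shift within replicate numbers is not excluded by this. No p is given for this summary over members.

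The shift that nearly all core members shared followed the replicate number more than the population. Deviations of the 61 core members from their group means, over the 12 libraries, correlated above 0 in 96.72% of pairs of members. For the 2496 other genes at 100 CPM or more this held in 52.11% of pairs. Among the core members Rpl7l1 ran against the rest (r = -0.793 with the family level). In Eos+ Tregs 60 of 61 core members were highest in replicate 4 and 48 were lowest in replicate 2. In Eos- Tregs 60 of 61 were again highest in replicate 4, and 41 were lowest in replicate 1. In Tconv 52 were highest in replicate 4 and 43 lowest in replicate 1. Replicate 4 was the highest library in all 3 groups for 85.2% of the core members and for 5.29% of the 2496 other genes at 100 CPM or more. The replicate number took a median of 62.1% of the variance in log2 level of a core member and the population 17.3%. For the other 2496 genes these medians were 22.8% and 56.1%. Such shares are not adjusted for the unequal number of replicate numbers and populations. Each is above 0 without any effect, so 17.3% alone does not show a population effect. The labels do not say what the replicate number marks, although library names share an identifier across the 3 populations of each number.

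**Figure D2:**
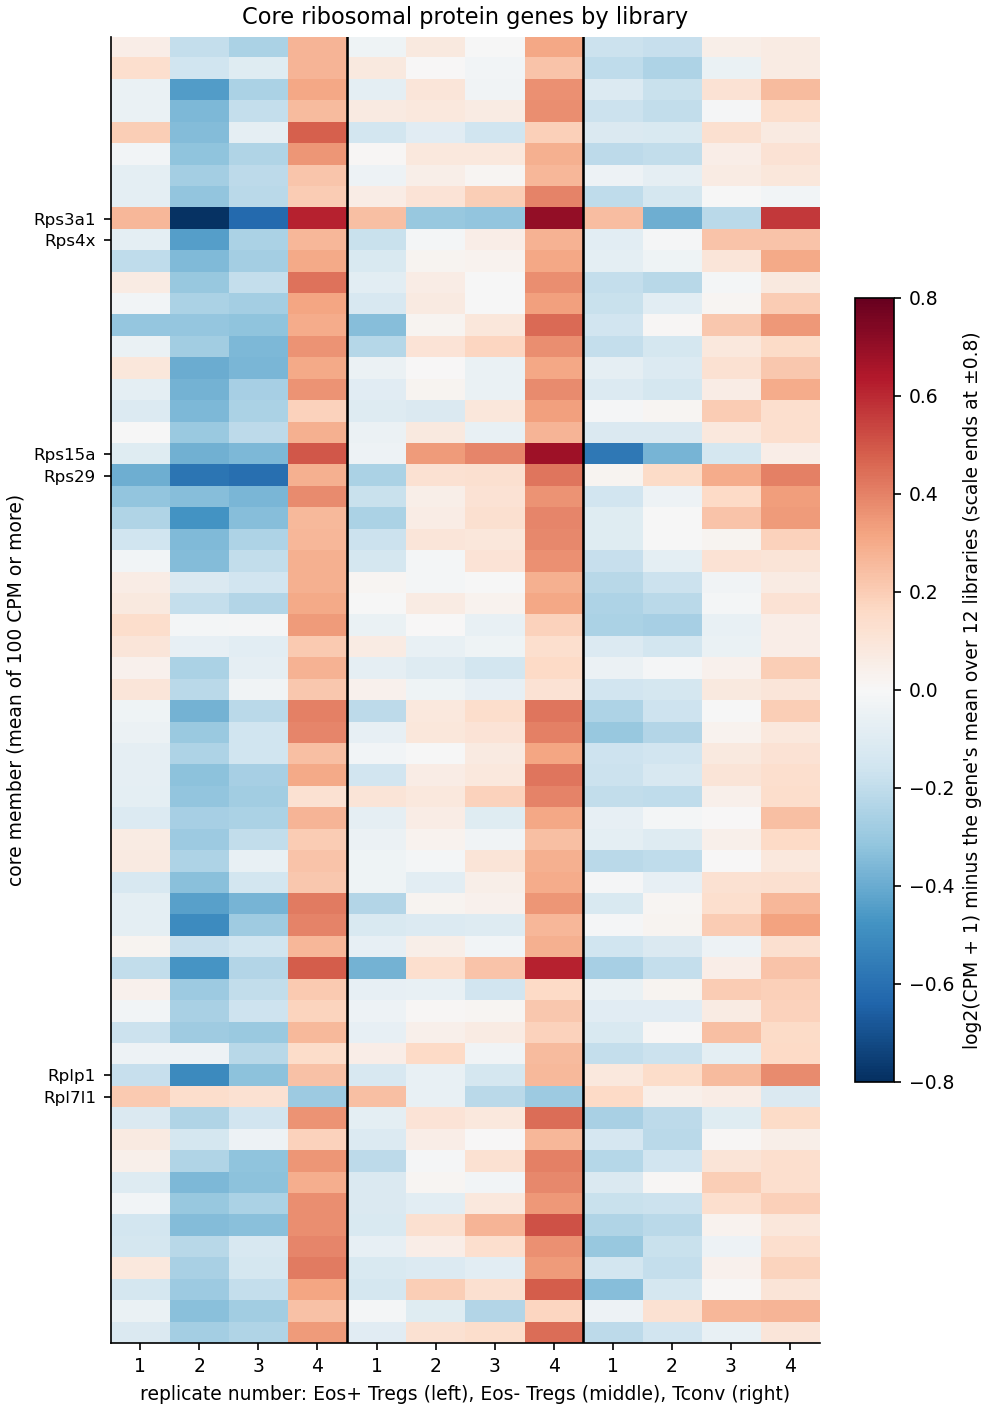
Heat map of the 61 core members (rows, small subunit above large and highest mean level first, with names for 6 members) in 12 libraries (columns, replicates 1 to 4 of Eos+ Tregs, Eos- Tregs and Tconv), coloured by log2(CPM + 1) minus the gene's mean. The column of replicate 4 is high for nearly all genes in each group, Rpl7l1 runs the other way, and Rps3a1 alternates with the replicate number.

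Measures of the libraries were set beside this shift. Libraries of Eos+ Tregs held 31.4 to 35 M expected counts, those of Eos- Tregs 23.9 to 35.6 M, those of Tconv 27.6 to 37.9 M. Mitochondrial genes took 0.847%, 0.671%, 0.511% and 1.10% of the counts in Eos+ Treg libraries 1 to 4, 0.631%, 0.850%, 0.744% and 0.940% in Eos- Tregs and 0.890%, 1.10%, 1.20% and 1.41% in Tconv. Replicate 4 had the highest mitochondrial share in each group, and in Eos- Tregs and Tconv this share ranked the libraries as the family level did. Its part in the shift was not tested. The median shift of 1599 other transcripts under 1000 bases lay between -0.06 and 0.05 in log2 in all libraries, against a range of -0.30 to 0.33 for the family. The part of transcript length in the shift was not tested. The 78 mitochondrial ribosomal protein genes shifted by -0.21 to 0.16, and in replicate 4 they were near 0 in Eos+ Tregs, at 0.03 in Eos- Tregs and at 0.16 in Tconv. The summed level of 8 erythroid and granulocyte markers was 228 to 306 CPM in the libraries numbered 1, 4.39 to 27.6 CPM in those numbered 4 and at most 1.21 CPM in the others. In the libraries numbered 1 nearly all of it came from the haemoglobin genes Hbb-bs (127 to 165 CPM) and Hba-a1 (93.2 to 136 CPM). Foxp3 was 55 CPM in Eos+ Treg library 1 and 485 to 820 CPM in the other 3, and 53.3 CPM in Eos- Treg library 1 and 653 to 862 CPM in the other 3, against 0.687 to 3.42 CPM in Tconv. The 6 Treg markers fixed for the check were each higher in both Treg populations than in Tconv. B cell markers, 9 genes with none at 0, summed to 1400 to 1830 CPM in Eos+ Tregs, 177 to 472 CPM in Eos- Tregs and 227 to 399 CPM in Tconv. The part of these differences in the ribosomal protein results was not tested.

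Gene by gene, few members differed between the populations by edgeR's quasi-likelihood test with Benjamini-Hochberg adjustment over 15361 genes. Between Eos+ and Eos- Tregs 1 of 89 members passed an adjusted p of 0.05, Rps4l, where 16.3% of all tested genes passed. Between Eos+ Tregs and Tconv the 1 member called was again Rps4l, where 30.3% of all genes passed. Between Eos- Tregs and Tconv the 1 member called was Rpl22l1, where 14.6% of all genes passed. At an unadjusted p under 0.05 the counts were 3, 6 and 5 of 89. The members' share of calls was thus below the background in each comparison. Without Eos+ Treg replicate 4 the count was 12 in Eos+ over Eos- Tregs and 14 in Eos+ Tregs over Tconv, and in the second of these it was 2 without Eos+ Treg replicate 2, Eos- Treg replicate 4 or Tconv replicate 4. In Eos- Tregs over Tconv it was 0 without Eos- Treg replicate 2 or 3 or Tconv replicate 2 or 4, and 2 without Eos+ Treg replicate 4. By direction, 9.82% of all genes were higher and 6.45% lower in Eos+ than in Eos- Tregs, 17.3% higher and 13% lower in Eos+ Tregs than in Tconv, and 8.76% higher and 5.89% lower in Eos- Tregs than in Tconv. Groups of 4 libraries without overlap were as rare among the members. Rps4l was the 1 member of 89 whose libraries did not overlap between Eos+ and Eos- Tregs, against 20% of all genes, and between Eos+ Tregs and Tconv, against 33.1%. Between Eos- Tregs and Tconv there were 3, with Rpl22l1 and Rps19bp1 among them, both below, against 20.1% of all genes.

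The fold changes were small and, in the comparison of the Treg populations, mostly on 1 side. Of 76 canonical genes 70 lay below 0 in Eos+ over Eos- Tregs, 50 in Eos+ Tregs over Tconv and 22 in Eos- Tregs over Tconv. The members' medians were -0.14, -0.07 and 0.05 in log2, against 0.00, -0.01 and -0.01 for all genes. The medians rested on single libraries: without Eos+ Treg replicate 2 that of Eos+ Tregs over Tconv became 0.02, without Eos- Treg replicate 4 that of Eos- Tregs over Tconv became -0.02, and that of Eos+ over Eos- Tregs ranged from -0.28 without Eos+ Treg replicate 4 to -0.04 without Eos- Treg replicate 4. Canonical genes within 1.2-fold of equal numbered 66 of 76 in Eos+ over Eos- Tregs, 70 in Eos+ Tregs over Tconv and 72 in Eos- Tregs over Tconv. Small and large subunit genes had like medians, at -0.17 and -0.13 in Eos+ over Eos- Tregs.

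**Figure D3:**
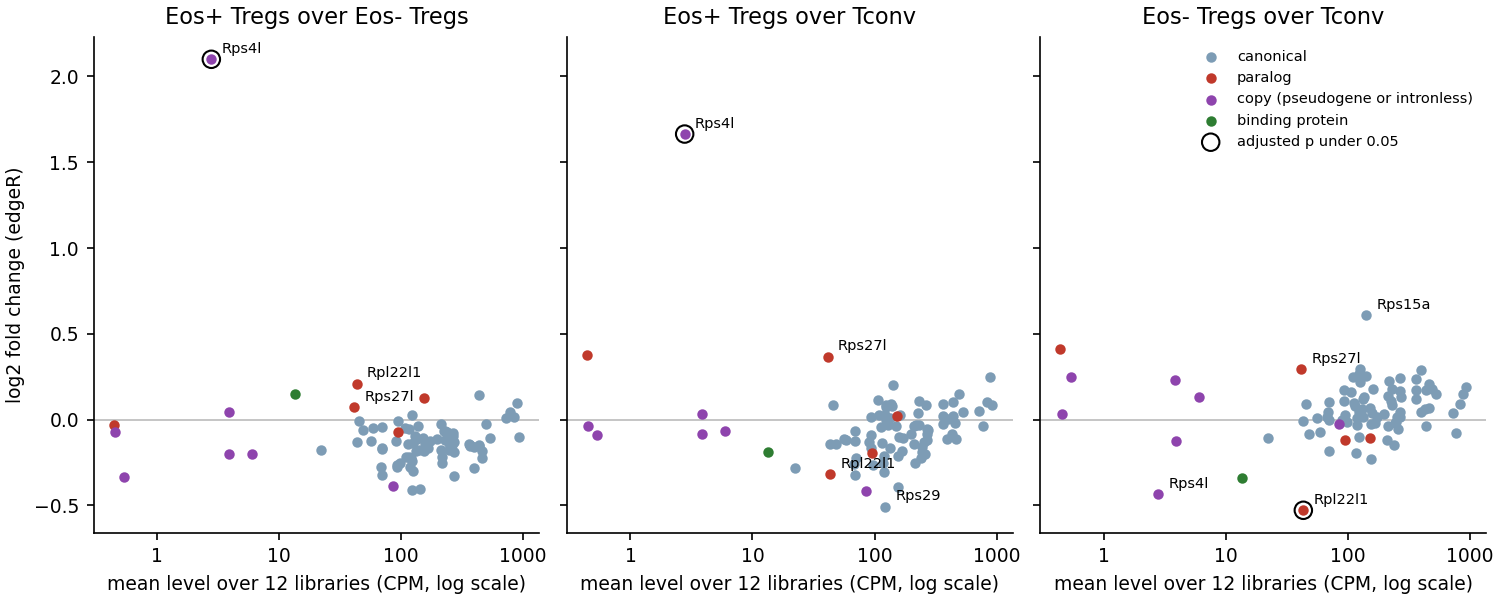
Log2 fold change from edgeR (vertical axis) against the mean level over 12 libraries in CPM (horizontal axis, log scale) for the 89 members that passed the filter, in 3 comparisons; colours give the kind of member and open circles an adjusted p under 0.05. Rps4l stands apart at 2.10 and 1.66 in the comparisons with Eos+ Tregs on top, and Rpl22l1 is the 1 member called in Eos- Tregs over Tconv, at -0.53.

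Same-numbered libraries deviated together across genes, so the replicate number was also fitted as a block, and this changed the counts. With the block 9 members were called in Eos+ over Eos- Tregs, 1 higher and 8 lower, against 22.8% of all genes, 13.1% higher and 9.67% lower. The 8 included Rps14, Rps15a, Rps29, Rpl13a, Rpl27, Rpl31 and Rpl35a. In Eos+ Tregs over Tconv 11 were called, against 36.3% of all genes, 19.8% higher and 16.5% lower. They were Rps4l, Rps27l and Rpl13 higher, and Rps20, Rps25, Rps29, Rpl5, Rpl22l1, Rpl27, Rpl31 and Rplp1 lower. In Eos- Tregs over Tconv 6 were called, against 21.5% of all genes, 11.3% higher and 10.2% lower. They included Rps15a, Rps27l, Rpl13a and Rpl26, which were higher, and Rpl22l1, which was lower. The members' shares, 10.1%, 12.4% and 6.74%, were again below those of all genes.

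Among these canonical genes Rps29 and Rps15a, both of the small subunit, had the largest changes. Rps29 (chromosome 12, 69157722 to 69159186), a small zinc-binding protein of the subunit's head, was 90.6, 79.1, 78 and 145 CPM in Eos+ Tregs, 99.7, 130, 130 and 161 CPM in Eos- Tregs and 121, 133, 146 and 158 CPM in Tconv. It was lower in Eos+ Tregs than in Tconv in all 4 pairs, while the 2 groups overlapped through Eos+ replicate 4. Its log2 fold change was -0.51 (SE 0.194, edgeR adjusted p = 0.0668) and -0.54 (SE 0.124, edgeR adjusted p = 0.0062) with the block. Rps15a (chromosome 7, 118104372 to 118116188) was 128, 105, 107 and 194 CPM in Eos+ Tregs, 133, 174, 180 and 220 CPM in Eos- Tregs and 91.9, 106, 124 and 142 CPM in Tconv. Eos- Tregs exceeded Tconv in all 4 pairs, with replicate 1 of Eos- Tregs inside the range of Tconv. The log2 fold change was 0.61 (SE 0.208, edgeR adjusted p = 0.0694) and 0.61 with the block (edgeR adjusted p = 0.00594). Rplp1, an acidic protein of the stalk, was 136 ± 31.7 CPM in Eos+ Tregs and 179 ± 16.1 CPM in Tconv (SD, n = 4 each), lower in all 4 pairs.

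To ask which members moved against the rest of the family, the fit was repeated with each library scaled to the core members. A member was said to depart when it passed an adjusted p of 0.05 on this scale and differed from the family by over 1.5-fold. Rps4l departed in Eos+ over Eos- Tregs, at 2.33 in log2 (edgeR adjusted p = 0.00193), and in Eos+ Tregs over Tconv, at 1.70 (edgeR adjusted p = 0.00628). Rpl22l1 departed in Eos- Tregs over Tconv, at -0.65 (edgeR adjusted p = 0.0246). On this scale 10.1%, 19.7% and 6.82% of all genes were called in Eos+ over Eos- Tregs, Eos+ Tregs over Tconv and Eos- Tregs over Tconv. With the block those shares were 18%, 28.3% and 15.9%, and the same members departed. Passing with a smaller change were Rps29, at -0.50 (edgeR adjusted p = 0.00973), and Rplp1, at -0.37 (edgeR adjusted p = 0.0197), in Eos+ Tregs over Tconv, and Rps15a, at 0.50 (edgeR adjusted p = 0.0332), in Eos- Tregs over Tconv.

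Rps4l is a copy of Rps4x without introns, annotated as a transcribed processed pseudogene (ENSMUSG00000063171.4, chromosome 6, 148354656 to 148355598, plus strand, mm10). Its level was 6.36, 5.31, 4.87 and 5.02 CPM in Eos+ Tregs, 1.20, 0.88, 0.62 and 2.30 CPM in Eos- Tregs and 2.06, 1.95, 1.37 and 1.42 CPM in Tconv. Every Eos+ Treg library was above every library of the other groups. The log2 fold change was 2.10 over Eos- Tregs (4.29-fold, SE 0.385, edgeR adjusted p = 0.00254) and 1.66 over Tconv (3.17-fold, SE 0.379, edgeR adjusted p = 0.00481), higher in 4 of 4 pairs in both. Without the 3 libraries numbered 1, which held most of the Hbb-bs and Hba-a1 transcripts, these were 1.98 (edgeR adjusted p = 0.0227) and 1.68 (edgeR adjusted p = 0.027). As those libraries lie in all 3 groups, leaving them out does not address markers that differ between groups, such as the B cell markers. The part of such markers in the Rps4l level was not tested. The values rest on 726 counts over the 4 Eos+ Treg libraries, 158 over those of Eos- Tregs and 216 over those of Tconv, a low level. Rps4x, the X-linked parent, was 238 ± 51.4 CPM in Eos+ Tregs, 264 ± 35 CPM in Eos- Tregs and 274 ± 30.5 CPM in Tconv (SD, n = 4 each) and passed in none of the 3 comparisons.

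Over the coding sequence of Rps4x, 792 bases with the stop codon, Rps4l was identical at 632 and differed by 157 substitutions and 3 gap positions, an identity of 79.8%. A stretch of 61 bases with 19 differences, in capitals, shows how far apart the 2 sequences are. It covers coding positions 61 to 121, counted from 1 at the start codon of Rps4x, and spans a splice junction of Rps4x.
Rps4x: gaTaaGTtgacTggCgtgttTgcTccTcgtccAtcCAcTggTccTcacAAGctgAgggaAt
Rps4l: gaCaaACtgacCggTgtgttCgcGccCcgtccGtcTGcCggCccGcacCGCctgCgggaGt

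Among the values of Rps4l in libraries where it was above 0, 16.67% were not whole, against 100% for Rps4x. A value that is not whole marks a gene whose reads RSEM shared with others.

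Rpl22l1 (ENSMUSG00000039221.10, chromosome 3, 28805436 to 28807424, plus strand) encodes a paralog of Rpl22, a large-subunit protein with a known role in thymocyte development. It was 39.6, 42.7, 33 and 51.2 CPM in Eos+ Tregs, 32.6, 36.6, 34.8 and 40 CPM in Eos- Tregs and 43.1, 59.6, 48.2 and 56.8 CPM in Tconv. All 4 Eos- Treg libraries were below all Tconv libraries, and Eos+ Tregs overlapped both. The log2 fold change in Eos- Tregs over Tconv was -0.53 (1.44-fold lower, SE 0.145, edgeR adjusted p = 0.0273), and -0.52 with the block (edgeR adjusted p = 0.00416). In Eos+ Tregs over Tconv it was -0.32 (edgeR adjusted p = 0.119), and -0.32 with the block (edgeR adjusted p = 0.0264). The call in Eos- Tregs was lost when Eos- Treg replicate 1, 2 or 3 or Tconv replicate 2 or 4 was left out, with log2 fold changes of -0.54 to -0.45. Without the 3 libraries numbered 1 the call held (log2 -0.56, edgeR adjusted p = 0.0453), but the departure from the family did not pass. Without the 3 numbered 4 it was lost (log2 -0.53, edgeR adjusted p = 0.0682). Rpl22 itself was 40.5 ± 8.91 CPM in Eos+ Tregs, 44.4 ± 6.88 CPM in Eos- Tregs and 44.7 ± 5.53 CPM in Tconv (SD, n = 4 each). Rpl22l1 shares exon positions with the predicted gene Gm33051, and without strand the reads of both cannot be told apart.

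**Figure D4:**
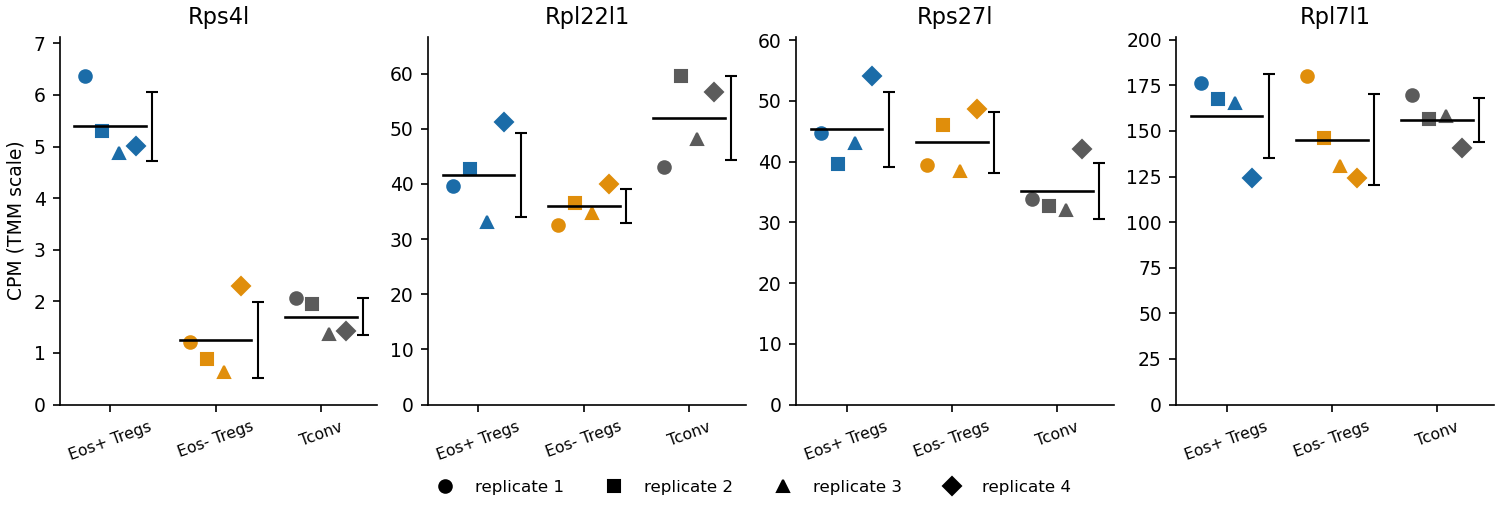
Levels in CPM of Rps4l, Rpl22l1, Rps27l and Rpl7l1 in each library; points are libraries with symbols for the replicate number, horizontal lines group means and bars 1 SD (n = 4). Rps4l is above 4.8 CPM only in Eos+ Tregs, Rpl22l1 in Eos- Tregs lies under all Tconv libraries, and Rpl7l1 is lowest in replicate 4 of each group.

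Rps27l, a paralog of Rps27 known as a p53 target, was 44.7, 39.6, 43 and 54.1 CPM in Eos+ Tregs, 39.4, 46.1, 38.5 and 48.7 CPM in Eos- Tregs and 33.9, 32.7, 32.1 and 42 CPM in Tconv. Both Treg populations exceeded Tconv in 4 of 4 pairs, and both overlapped it through Tconv replicate 4. The log2 fold change over Tconv was 0.37 in Eos+ Tregs (edgeR adjusted p = 0.0514, and 0.00849 with the block) and 0.30 in Eos- Tregs (edgeR adjusted p = 0.165, and 0.0368 with the block). Rps27 passed in none of the 3 comparisons, with levels of 201 ± 47.7, 227 ± 38.2 and 206 ± 24 CPM in Eos+ Tregs, Eos- Tregs and Tconv.

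Rpl7l1, a paralog of Rpl7 that takes part in assembly of the large subunit in human cells, was 176, 167, 165 and 124 CPM in Eos+ Tregs, 180, 146, 131 and 124 CPM in Eos- Tregs and 170, 157, 158 and 140 CPM in Tconv. It was lowest in replicate 4 of each group, where the other core members were highest. No comparison of populations passed for it, with log2 fold changes of 0.12 in Eos+ over Eos- Tregs, 0.02 in Eos+ Tregs over Tconv and -0.11 in Eos- Tregs over Tconv. Rpl36al was 88.8 ± 10.8 CPM in Eos+ Tregs, 93.3 ± 9.56 CPM in Eos- Tregs and 101 ± 10.3 CPM in Tconv and passed in none. Rpl39l stayed under 0.9 CPM in every library.

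The ratio of a paralog or copy to its parent compares both within a library, so that a shift shared by the family largely cancels. It was taken on CPM + 1, which shrinks the ratios of low genes such as Rps4l and Rpl39l and leaves them in part dependent on the scaling. Of 9 ratios fixed, 7 had both genes measured, which gave 21 comparisons by an exact two-sided permutation test, whose smallest p with 4 against 4 libraries is 0.029. The ratio of Rpl22l1 to Rpl22, as a log2 value, was 0.04 ± 0.22 in Eos+ Tregs. It was -0.29 ± 0.10 in Eos- Tregs, and 0.21 ± 0.22 in Tconv. The difference was 0.33 between Eos+ and Eos- Tregs and -0.49 between Eos- Tregs and Tconv, both at the smallest exact p. The ratio of Rps27l to Rps27 was -2.10 ± 0.16 in Eos+ Tregs and -2.52 ± 0.16 in Tconv, and the ratio of Rps4l to Rps4x was -5.21 ± 0.34 in Eos+ Tregs. This second ratio was -6.92 ± 0.37 in Eos- Tregs, and -6.67 ± 0.35 in Tconv. These gave 5 comparisons at the smallest exact p, each with an adjusted p of 0.12 over the 21, so 0 of 21 passed 0.05. An adjusted p under 0.05 would need most of the 21 comparisons to reach the smallest p, so this count says little. The log2 ratio of Rps27rt, an intronless copy, to Rps27 held within -4.95 and -4.92 in the 3 group means.

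Rps3a1 and its copy Rps3a2 departed from the family in another way, with the replicate number, and neither passed in a comparison of populations. Rps3a1 lies on chromosome 3 (86137940 to 86142702, minus strand), and Rps3a2 on chromosome 14 (88123017 to 88123808, minus strand), where it is annotated as a processed pseudogene. Rps3a2 was 4.04, 124, 147 and 5.63 CPM in Eos+ Tregs, 3.16, 182, 176 and 5.37 CPM in Eos- Tregs and 3.76, 175, 191 and 5.13 CPM in Tconv. Rps3a1 was 451, 217, 243 and 575 CPM in Eos+ Tregs, 443, 304, 301 and 611 CPM in Eos- Tregs and 445, 286, 322 and 554 CPM in Tconv. In all 3 groups Rps3a2 was high, and Rps3a1 low, in the libraries numbered 2 and 3. Rps3a2 took 36.4% to 37.9% of the summed level of the 2 genes in those 6 libraries and 0.708% to 0.969% in the 6 libraries numbered 1 and 4. The sum was 442 ± 104 CPM in Eos+ Tregs, 506 ± 75.2 CPM in Eos- Tregs and 495 ± 51 CPM in Tconv (SD, n = 4 each). The replicate number took 91.5% of the variance of Rps3a1 and 60.5% of that of the sum, close to the 62.1% of a typical core member.

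**Figure D5:**
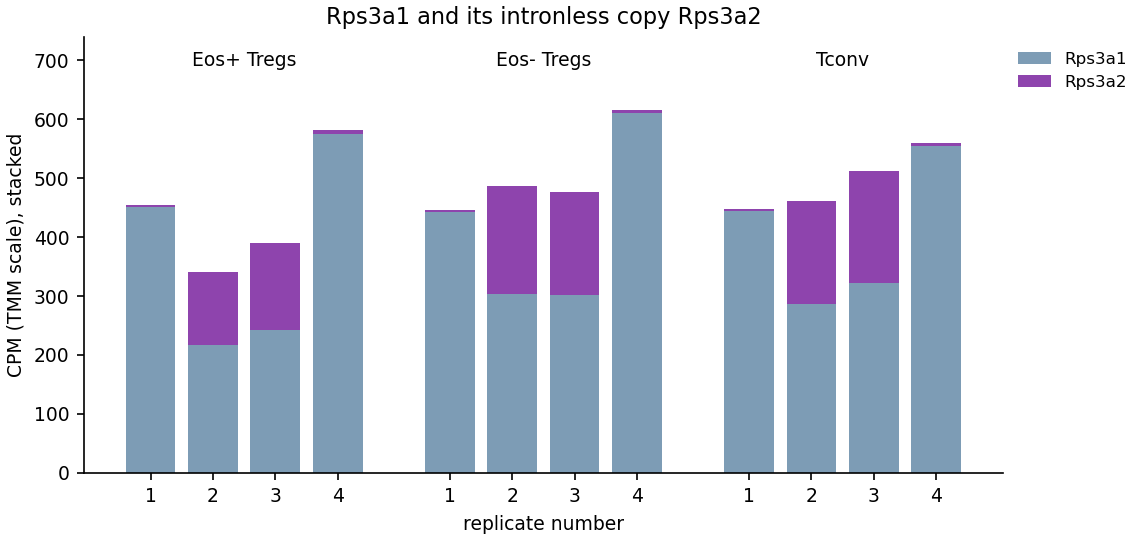
Stacked bars of Rps3a1 and Rps3a2 in CPM for the 12 libraries, by replicate number within Eos+ Tregs, Eos- Tregs and Tconv. Rps3a2 makes up about 37% of the bar in replicates 2 and 3 of each group and under 1% in replicates 1 and 4.

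Rps3a2 matched the 792 coding bases of Rps3a1 before its stop codon except at 4 positions, T216C, T534C, A645T and T668C, with the base of Rps3a1 first and positions counted from 1 at its start codon. The windows around the first and around the last 2 of these are printed because so few bases, in capitals, separate the 2 genes within this stretch. The first is in mm10 at chr3:86141347-86141407 and chr14:88123563-88123623, both on the minus strand, and the second covers coding positions 630 to 683.
Rps3a1, first window: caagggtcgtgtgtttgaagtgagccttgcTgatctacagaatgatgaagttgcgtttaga
Rps3a2, first window: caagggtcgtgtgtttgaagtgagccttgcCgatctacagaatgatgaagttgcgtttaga
Rps3a1, second window: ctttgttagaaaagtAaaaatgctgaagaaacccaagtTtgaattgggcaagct
Rps3a2, second window: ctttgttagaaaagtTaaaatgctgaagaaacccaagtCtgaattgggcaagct

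A read that lies within these 792 bases and covers none of the 4 positions fits both genes, and RSEM divides such reads between them. A read that reaches bases of the Rps3a1 transcript outside this stretch fits only Rps3a1 of the 2. All values of both genes were fractional, so their separate levels are uncertain, and what sets the libraries numbered 2 and 3 apart was not tested.

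Genes around the ribosome were counted from fixed lists, beside 30.3% of all genes called in Eos+ Tregs over Tconv, 14.6% in Eos- Tregs over Tconv and 16.3% in Eos+ over Eos- Tregs. The ribosomal proteins whose symbols the rule does not take, Fau among them, passed in 0 of 4 cases in each comparison by edgeR, by DESeq2 and by limma-voom, with 0 at an unadjusted p under 0.05. With the block Fau was called in Eos- Tregs over Tconv (log2 0.29, edgeR adjusted p = 0.0355). Of 20 translation factors and related genes with pyrimidine-tract messenger RNAs, 0 were called in Eos+ Tregs over Tconv by edgeR or limma-voom and 1 by DESeq2, with 3 at an unadjusted p under 0.05 and 3 lower with the block. In Eos- Tregs over Tconv 2 were lower, and in Eos+ over Eos- Tregs 2 were higher. Vim, an intermediate filament protein, was higher in Eos+ than in Eos- Tregs, at 357 ± 32.8 CPM in Eos+ Tregs and 268 ± 15.1 CPM in Eos- Tregs (edgeR adjusted p = 0.015).

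Factors that build ribosomes were called about as often as all genes in the comparisons with Tconv, and most of those called were lower in Tregs. Of 44, 2 were higher and 11 lower in Eos+ Tregs than in Tconv, 0 were higher and 7 lower in Eos- Tregs than in Tconv, and 2 were higher and 1 lower in Eos+ than in Eos- Tregs. With the block 2 were higher and 14 lower, 0 higher and 15 lower, and 5 higher and 2 lower, in the same order. The medians were -0.15, -0.15 and 0.09 in log2. Polr1a, the largest subunit of RNA polymerase I, was 46.1 ± 8.97 CPM in Eos+ Tregs, 56.5 ± 4.9 CPM in Eos- Tregs and 77.4 ± 7.41 CPM in Tconv (SD, n = 4 each). Its log2 fold change over Tconv was -0.75 in Eos+ Tregs (edgeR adjusted p = 9e-04) and -0.45 in Eos- Tregs (edgeR adjusted p = 0.0369). Rrn3, which recruits that polymerase, was 53.5 ± 9.08 CPM in Eos+ Tregs and 76.7 ± 4.81 CPM in Tconv (edgeR adjusted p = 0.00379), and Tcof1, a nucleolar factor of ribosomal gene transcription, was 225 ± 22 CPM in Eos+ Tregs and 315 ± 40.4 CPM in Tconv (edgeR adjusted p = 0.00273). Sbds, which helps release Eif6 from the large subunit, went the other way, at 70.8 ± 4.17 CPM in Eos+ Tregs and 52.4 ± 4.1 CPM in Tconv (edgeR adjusted p = 0.00399). The shares called were 29.5% in Eos+ Tregs over Tconv, 15.9% in Eos- Tregs over Tconv and 6.82% in Eos+ over Eos- Tregs, against 30.3%, 14.6% and 16.3% of all genes. Over all genes 13% were lower in Eos+ Tregs and 5.89% in Eos- Tregs than in Tconv.

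Among regulators of ribosome production, genes were called in both directions. Of 27 genes of the mTORC1 and Myc lists, 6 were higher and 4 lower in Eos+ Tregs than in Tconv (7 and 7 with the block), and 3 were higher and 2 lower in Eos- Tregs than in Tconv (5 and 3 with the block). Between Eos+ and Eos- Tregs 1 was higher and 1 lower (1 and 2 with the block). These are 37%, 18.5% and 7.41% of the list, against 30.3%, 14.6% and 16.3% of all genes. Myc, a transcription factor that drives ribosomal genes, was 153 ± 27.6 CPM in Eos+ Tregs, 150 ± 47.6 CPM in Eos- Tregs and 93.6 ± 12.1 CPM in Tconv (SD, n = 4 each), with log2 fold changes over Tconv of 0.71 (edgeR adjusted p = 0.016) and 0.68 (edgeR adjusted p = 0.0379). Sesn1, an inhibitor of mTORC1, was 233 ± 24.3 CPM in Eos+ Tregs, 245 ± 37.3 CPM in Eos- Tregs and 115 ± 9.53 CPM in Tconv, with edgeR adjusted p of 1.9e-05 and 3.7e-05. Eif4ebp1, a repressor of cap-dependent translation, was 22.1 ± 3.14 CPM in Eos+ Tregs, 13.1 ± 1.51 CPM in Eos- Tregs and 9.61 ± 0.657 CPM in Tconv. It was higher in Eos+ Tregs than in Tconv (log2 1.20, edgeR adjusted p = 4.4e-05) and than in Eos- Tregs (log2 0.76, edgeR adjusted p = 0.00314). Rps6kb1, a kinase of ribosomal protein S6, was 72.9 ± 3.91 CPM in Eos+ Tregs, 95.1 ± 7.78 CPM in Eos- Tregs and 99.9 ± 5.47 CPM in Tconv, lower in Eos+ Tregs than in both.

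The Mdm2 and p53 response to free ribosomal proteins was covered by 9 measured genes. Sesn2 and Bbc3 were higher and Mdm4 lower in Eos+ Tregs than in Tconv (3 higher and 1 lower with the block). In Eos- Tregs over Tconv 0 passed by edgeR, DESeq2 or limma-voom, with 2 at an unadjusted p under 0.05. Between Eos+ and Eos- Tregs 1 was higher and 1 lower (2 and 1 with the block). By edgeR these are 33.3%, 0% and 22.2% of the 9, against 30.3%, 14.6% and 16.3% of all genes. Sesn2 was 37.5 ± 6.93 CPM in Eos+ Tregs, 13.6 ± 3.6 CPM in Eos- Tregs and 12.4 ± 2.88 CPM in Tconv, a log2 fold change of 1.60 over Tconv (edgeR adjusted p = 0.00017). Of 18 assembly and quality factors, 0 were higher and 2 lower in Eos+ Tregs than in Tconv (1 and 5 with the block), and 1 was higher and 1 lower in Eos- Tregs than in Tconv (2 and 3 with the block). Between Eos+ and Eos- Tregs 0 passed by edgeR and limma-voom and 2 by DESeq2, with 2 at an unadjusted p under 0.05 and 2 higher with the block. By edgeR these are 11.1%, 11.1% and 0% of the 18, against the same 30.3%, 14.6% and 16.3% of all genes. Among the 2 lower in Eos+ Tregs than in Tconv was Tsr2, the carrier of Rps26, at 16.7 ± 0.775 CPM in Eos+ Tregs and 23.3 ± 0.867 CPM in Tconv (edgeR adjusted p = 0.00319). Of 78 mitochondrial ribosomal protein genes, 4 were higher and 6 lower in Eos+ Tregs than in Tconv (5 and 8 with the block), 1 was higher and 2 lower in Eos- Tregs than in Tconv (1 and 7 with the block), and 2 were higher and 1 lower in Eos+ than in Eos- Tregs (4 and 1 with the block). These are 12.8%, 3.85% and 3.85% of the list, below the 30.3%, 14.6% and 16.3% of all genes.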

How the data were processed

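The deposited values, per the file headers and values, are expected counts per gene from RSEM with no scaling for depth or length. The submitters' processing notes name RSEM 1.3.1, STAR 2.7.0f, cutadapt 1.18 and mm10, without parameters. The annotation release is not given in the sources used here. RSEM divides reads that fit several genes, so values of near-identical copies are uncertain. Gene IDs, 55450 in all, were matched to GENCODE M21 for positions and median transcript lengths, and all were found.

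After rounding of the expected counts, edgeR 4.0.16 (R 4.3.3) gave the main test, a quasi-likelihood F test with TMM factors and filterByExpr, with 1 mean per group and all 12 libraries in one fit. Two-sided p-values were Benjamini-Hochberg adjusted over 15361 genes in each comparison, at 0.05. CPM are on TMM-scaled totals. Ratios of paralogs used CPM + 1 and exact permutation. Variance shares are sums of squares of log2(CPM + 1) by group and by replicate number. Alternatives used DESeq2 1.42.0, limma 3.58.1 (voom) and the settings given in the closing section. Of the fits, only the main edgeR fit was also run on simulated counts. These were drawn gene by gene with no effect of the replicate number, unlike the data here, and did not cover the other fits. Coding sequences were aligned with Biopython 1.88.

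The replicate numbers were taken to pair the libraries. Over 10019 genes, deviations from group means correlated at 0.329 to 0.648 in all 12 pairs with the same number in different groups, and at -0.439 to 0.0948 in the 36 pairs with different numbers. Whether replicates came from separate animals is not in the labels, so a p-value here measures spread between libraries that may be technical. No 2 replicate libraries were alike within sampling noise (chi-square of 26.3 to 83.5 per degree of freedom over 18 pairs). Depth was 23.9 to 37.9 M expected counts per library.

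The members and lists were chosen with earlier results of these data known. The rule for named genes took all paralogs with their parents, 4 ribosomal proteins outside the symbol rule, members called (up to 10 in each direction) or with the 3 largest changes, members that depart, the 5 highest per subunit, and up to 4 called genes of each other list, of which a part is named. Some genes that it takes are not reported here. Named after their values were seen were Foxp3, members called with the block alone or apart in a single library, and Rps3a1 beside Rps3a2.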

Additional observations from a re-analysis of the deposited data

Results flagged for a closer look

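Of 105 groups of 4 libraries examined, over 35 genes and levels, 8 held a library that stood apart from the other 3, and chance alone flags about 1 in 20 groups. In all 8 the library apart was replicate 4, and it was the highest. In Eos+ Tregs Rps25 was 259.8 CPM in replicate 4 and 168.5 to 170.1 CPM in the others, and Fau was 147.6 CPM against 103.1 to 110.2 CPM. In Eos- Tregs replicate 4 had Rpl27 at 125.6 CPM, with 93.38 to 98.44 CPM in the others, Rpl35a at 122.3 CPM, with 93.46 to 96.6 CPM in the others, and Rps14 at 589.5 CPM, with 475.5 to 482 CPM in the others. In Tconv replicate 4 had Rpl31 at 81.95 CPM, with 66.59 to 68.83 CPM in the others, Rpl36al at 116.8 CPM, with 95.42 to 97.7 CPM in the others, and Rpl36a at 59.55 CPM, with 47.58 to 48.44 CPM in the others. These genes share the level of the whole family in a library, so the 8 are not separate events.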

How the results depend on the processing

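From the start the differences in family level were smaller than the SD of single libraries within a group. Their staying within it is thus no sign of stability. They ranged, with single libraries left out, over -0.27 to -0.07 (Eos+ over Eos- Tregs), -0.17 to 0.02 (Eos+ Tregs over Tconv) and 0.01 to 0.16 (Eos- Tregs over Tconv). Counts of members called stayed at 1 under other scalings, with no low-count filter, with named pseudogenes added to their parents, with Rps3a1 and Rps3a2 added together and without the libraries numbered 1. In Eos+ over Eos- Tregs the count was 2 with DESeq2, 6 when the libraries numbered 4 were omitted, 9 with the replicate block and 1 to 12 with 1 library left out (12 without Eos+ Treg replicate 4). In Eos+ Tregs over Tconv it was 4 with DESeq2 and limma-voom, 9 when the libraries numbered 4 were omitted, 11 with the replicate block and 1 to 14 with 1 library left out (14 without Eos+ Treg replicate 4, and 2 without Eos+ Treg replicate 2, Eos- Treg replicate 4 or Tconv replicate 4). In Eos- Tregs over Tconv it was 2 with DESeq2 and with only the 8 libraries compared, 6 with the replicate block and 0 to 2 with 1 library left out (0 without Eos- Treg replicate 2 or 3 or Tconv replicate 2 or 4, and 2 without Eos+ Treg replicate 4), while without those numbered 4 the 1 member called was Rps15a and no longer Rpl22l1. Fits that omit the libraries numbered 4, with Rps3a1 and Rps3a2 added, and with the block on the family scale were chosen after seeing the data. Members that depart in Eos+ Tregs over Tconv numbered 2, with Rps29, without the libraries numbered 4. In Eos- Tregs over Tconv they numbered 0 without the libraries numbered 1, 0 without those numbered 4 and 0 to 1 with 1 library left out. Rps4l passed in both comparisons under all these fits, with log2 fold changes of 1.87 to 2.61 over Eos- Tregs and 1.57 to 1.77 over Tconv. The largest adjusted p for Rps4l was 0.027. Rpl22l1 in Eos- Tregs over Tconv ranged from -0.61 to -0.45 in log2, with adjusted p of 0.00416 to 0.0978. Over all values followed for single genes and single ratios, Rps4l and Rpl22l1 included, 644 stayed on their side of the threshold. A further 59 newly passed, 6 no longer did and 0 changed sign. All 6 were Rpl22l1 in Eos- Tregs over Tconv. Paralog ratios passed in 0 of 21 comparisons under every setting tried, a count that the small groups nearly fix and that shows no stability. The causes of these changes were not tested.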
